A study of Mus musculus with 6 samples.

Results

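The genes described here are 48 that build and regulate the DNA replication machinery of a dividing cell, chosen by gene symbol from a list of replication licensing and DNA synthesis genes. All 48 were found among the 23290 entries of the authors' deposited table, each as 1 entry, and all 48 had been tested. RNA was sequenced from mouse hearts at embryonic stage E10.5, from 3 mutant and 3 control hearts on a C57BL/6 background, each taken from 1 embryo. Mutant hearts carried Cre recombinase at 1 Nkx2-5 allele and floxed alleles on both chromosomes of Casz1, a zinc finger transcription factor (Nkx2-5Cre/+,Casz1f/f). Control hearts carried 1 floxed Casz1 allele and no Cre (Nkx2-5+/+,Casz1f/+), so a floxed Casz1 allele is shared by both groups. The design asks which genes differ in the heart when Casz1 is mutated. Cre from the Nkx2-5 locus acts in cells that express Nkx2-5, chiefly heart muscle cells and cardiac progenitors, and recombined alleles pass to their descendants. Which cells of these hearts lost Casz1 was not measured. Levels are FPKM, fragments scaled by transcript length and by library, and the authors' deposited table gives 1 pooled value per genotype and none per heart, so neither depth nor the spread between hearts is known here. Every FPKM, p and q below is from the authors' deposited table, where q is the p-value adjusted over all tested entries and q under 0.05 is a call. Fold changes are log2 of mutant over control. Each standard error (SE) and 95% interval is the one implied by the authors' Cuffdiff statistic.

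Before a cell divides, its origins are licensed and then fired. The origin recognition complex (ORC) binds DNA and, with Cdc6 and Cdt1, loads a ring of MCM2 to MCM7 around it in G1, and geminin blocks Cdt1 afterwards so that each origin fires once per cycle. Cdc45 and GINS turn the ring into a working helicase, and primase, the replicative polymerases, the clamp PCNA and its loader copy the strands. Heart muscle cells still divide at this stage, unlike most of those of the adult, and many of these genes are switched on by E2F factors at the start of S phase.

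The targeted gene, Casz1 (mm10 chr4:148804392-148954892), read 4.68 FPKM in mutant and 6.61 FPKM in control hearts (log2 -0.50, SE 0.306, p = 0.104 and q = 1.00 in the authors' deposited table). Nkx2-5, which carries Cre in mutants only, read 82.9 FPKM in mutant and 143 FPKM in control hearts (log2 -0.79, SE 0.295, p = 0.00755 and q = 0.536 in the authors' deposited table), so effects of both loci cannot be told apart. The label of heart tissue was checked on 14 heart muscle markers. The most abundant were the myosin light chains Myl7, at 7496 FPKM in mutant and 5080 FPKM in control hearts, and Myl2, at 3942 FPKM in mutant and 5549 FPKM in control hearts, neither of them called.

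By point estimate, replication gene levels in mutant hearts lay close to those in control hearts for every member. None of the 48 was called higher or lower by the authors' Cuffdiff test, and 0 had an unadjusted p under 0.05. Over all 15387 tested entries 0.422% were called, 0.305% higher and 0.117% lower, and 3.17% had an unadjusted p under 0.05, so a count of 0 among 48 is near the background and is no result about these genes. The mutant level of single genes lay between 89.5% of control for Mcm2 and 109% for Orc1, and 46 of 48 lay within 10% of control. The fold changes had a median of -0.06 and quartiles of -0.09 and 0.01. Over the 8423 tested entries with a mean FPKM in the same range, from 4.58 to 186, the median was -0.02 and the quartiles were -0.09 and 0.05. Of these entries 80.0% had an absolute fold change of at most 0.16, the largest among the members. The lowest p among the members was 0.583, for Cdt1, and each q was 1.00.

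What the test could have seen is set by its error. The implied SE of a member had a median of 0.294, and for Mcm5, a gene near that median, the 95% interval ran from 67.0% to 149% of control. The 95% interval lay inside a 2-fold change in either direction for 45 of 48 members, against 89.7% of tested entries in the same range of levels. The exceptions were Rfc4 (SE 0.962), Orc5 (SE 0.493) and Gins2 (SE 0.480). A p that misses the threshold does not show that levels were equal, and shifts of the size seen here were not detectable at this error. The smallest fold change called anywhere in the table was 2.29-fold (1.20 on the log2 scale, in either direction).

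**Figure D1:**
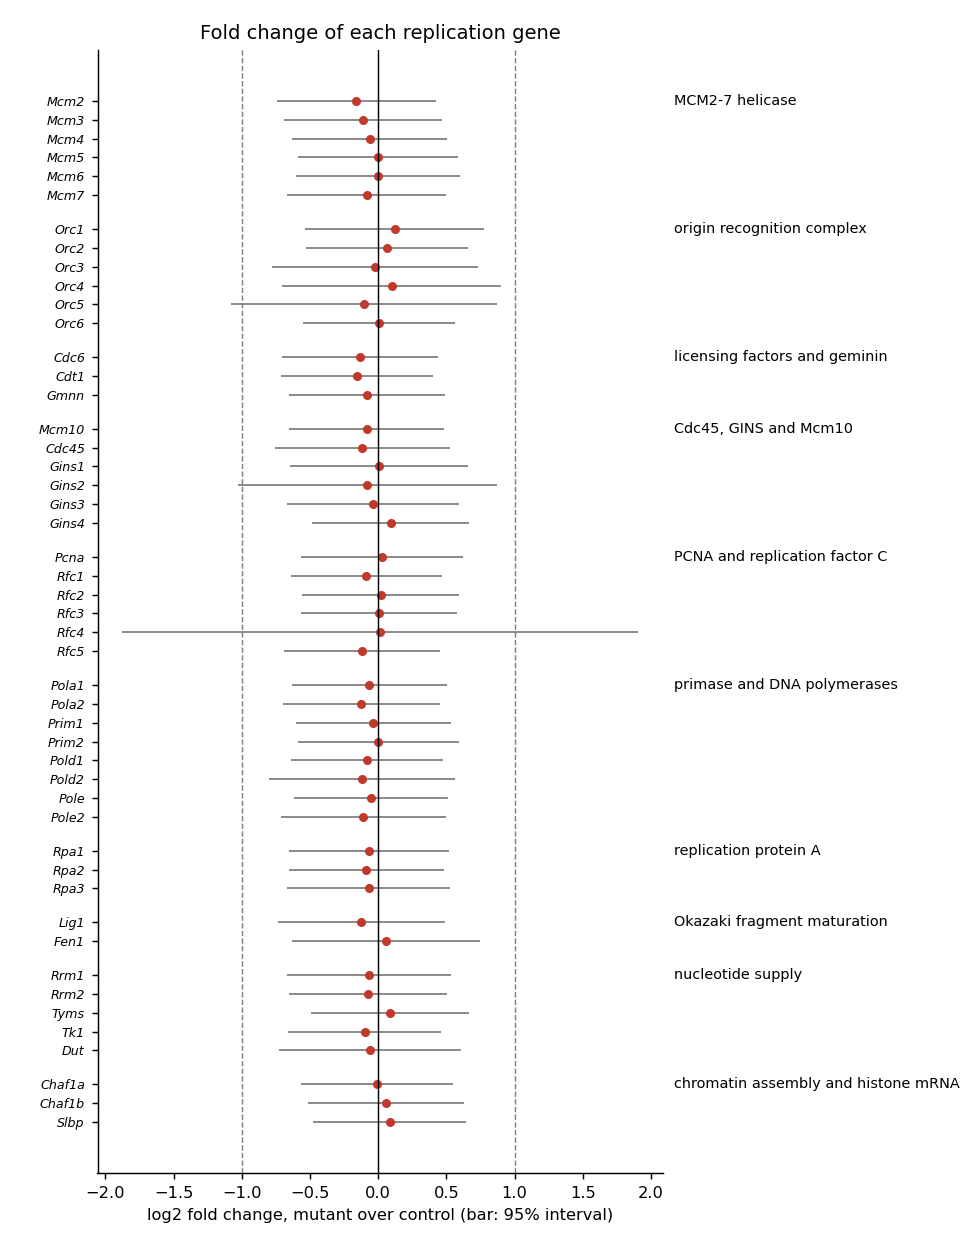
Log2 fold change of each of the 48 replication genes, mutant over control, grouped by complex from top to bottom. Points are fold changes, bars their 95% intervals implied by the authors' test statistic, and dashed lines mark a 2-fold change. All points lie between -0.16 and 0.12, every bar crosses 0, and the bars of Rfc4, Orc5 and Gins2 cross a dashed line.

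Most members lay slightly below 0. The fold change was below 0 for 33 of 48 (68.8%), against 54.7% of the 15301 tested entries with a finite fold. Summed over the 48 genes the level was 1867 FPKM in mutant and 1923 FPKM in control hearts. The sign of such small shifts depends on how the libraries are scaled. With fold changes centred on the median of expressed entries, 30 of 48 (62.5%) lay below 0, against 49.9% of tested entries. With FPKM scaled to an equal sum in both genotypes 40 of 48 (83.3%) did, against 63.4% of tested entries. For the 8423 entries in the members' FPKM range, the share below 0 was 56.4% as deposited, 49.8% with centring and 68.3% with equal sums.

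Of the 6 MCM helicase subunits 5 were among the 10 most abundant members and Mcm4 ranked 20, with levels from 42.1 to 81.2 FPKM in mutant and from 44.0 to 81.8 FPKM in control hearts. Mcm6 was at 81.2 FPKM in mutant and 81.2 FPKM in control hearts, and Mcm5 was at 58.1 FPKM in mutant and 58.2 FPKM in control hearts. These were the closest to equality of the 6 subunits. Mcm2, the subunit that also carries histones at the fork, read 62.2 FPKM in mutant and 69.6 FPKM in control hearts (log2 -0.16, SE 0.294, 95% interval -0.74 to 0.42, p = 0.586 in the authors' deposited table). This was the lowest ratio of all 48 genes. Mcm3 read 70.6 FPKM in mutant and 76.3 FPKM in control hearts, Mcm7 read 77.1 FPKM in mutant and 81.8 FPKM in control hearts, and Mcm4 read 42.1 FPKM in mutant and 44.0 FPKM in control hearts. The ring needs its subunits in equal number, and their transcript levels spanned 1.93-fold in mutant and 1.86-fold in control hearts, per length. As deposited 5 of 6 lay below 0, with centring 4 of 6 and with equal sums 6 of 6.

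Many of the promoters of these genes hold a sequence of the type that E2F factors recognise, in a count that used no expression value of the members. RefSeq promoters of build GRCm38.p6, from 250 bases before to 50 bases after the annotated start, were listed for 40 of the 48 members. They were searched on both strands for the E2F-type words TTTCCCGC, TTTGGCGC, TTTGCCGC and TTTCGCGC. Of the 40 genes 14 (35.0%) held at least 1, against 2.60% of all 27025 genes in the table and 4.96% of the 9564 with a tested entry of at least 1 FPKM. Words on opposite strands can overlap and are counted separately, which gave 20 words, 12 of them beginning before the start and 8 after it. Among the MCM helicase genes 4 of 5 with a listed promoter held words (Mcm3, Mcm5, Mcm6 and Mcm7). Words were also present for the loading factors Cdc6 and Cdt1, for Orc1, Orc3, Gins3, Rfc3 and Lig1, and for the polymerase genes Pola1, Pold1 and Pole2. Of 27 mitosis genes with a promoter, 1 held a word (3.70%), and of 65 other replication pathway genes 14 did (21.5%). CCAAT, searched on both strands, was in 62.5% of the members and 41.1% of all genes. It was in 77.8% of the mitosis genes and 49.2% of the other replication pathway genes, so it is not particular to the members.

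The Mcm6 promoter is shown because it held the most words, 3 of the E2F type in capitals, of which the first pair overlap. The 2 single runs of ATTGG in capitals are CCAAT read on the other strand. The stretch is the 250 bases before the start, at GRCm38.p6 chr1:128359706-128359955 on the minus strand, printed 5′ to 3′ in the direction of the gene.
Mcm6: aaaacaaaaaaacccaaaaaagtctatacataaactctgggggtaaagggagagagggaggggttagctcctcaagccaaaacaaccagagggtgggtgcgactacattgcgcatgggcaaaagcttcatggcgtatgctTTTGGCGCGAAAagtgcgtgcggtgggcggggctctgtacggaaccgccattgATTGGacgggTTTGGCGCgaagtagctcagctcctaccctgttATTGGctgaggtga

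Shorter windows before the start follow for members of successive steps, the origin subunits, a loader, ring subunits, GINS and polymerase alpha, with E2F-type words in capitals and the gene's strand read 5′ to 3′. On GRCm38.p6 they lie at chr4:108579412-108579449 on the plus strand (Orc1), chr4:34614961-34614998 on the minus strand (Orc3), chr11:98907998-98908035 on the plus strand (Cdc6), chr8:75109341-75109382 on the plus strand (Mcm5), chr5:138172026-138172063 on the minus strand (Mcm7), chr8:95633503-95633540 on the plus strand (Gins3) and chrX:93632271-93632308 on the minus strand (Pola1).
Orc1: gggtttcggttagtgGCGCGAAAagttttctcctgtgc
Orc3: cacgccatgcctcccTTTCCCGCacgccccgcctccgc
Cdc6: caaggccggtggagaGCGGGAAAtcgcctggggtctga
Mcm5: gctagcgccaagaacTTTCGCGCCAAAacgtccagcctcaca
Mcm7: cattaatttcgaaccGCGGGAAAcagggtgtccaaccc
Gins3: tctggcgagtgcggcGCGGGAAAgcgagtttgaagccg
Pola1: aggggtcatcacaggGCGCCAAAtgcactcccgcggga

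In Mcm5 the capitals are 2 overlapping words, 1 on each strand, as in the first pair of Mcm6. The word begins 27 bases before the start in Orc1, 41 in Orc3 and Gins3, 138 in Cdc6 and Pola1, and 165 in Mcm7. Members with a word had a median fold change of -0.07 over 14 genes, and members with a listed promoter and no word had a median of -0.07 over 26 genes. These matches describe letters in a window and say nothing of binding in these hearts.

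**Figure D2:**
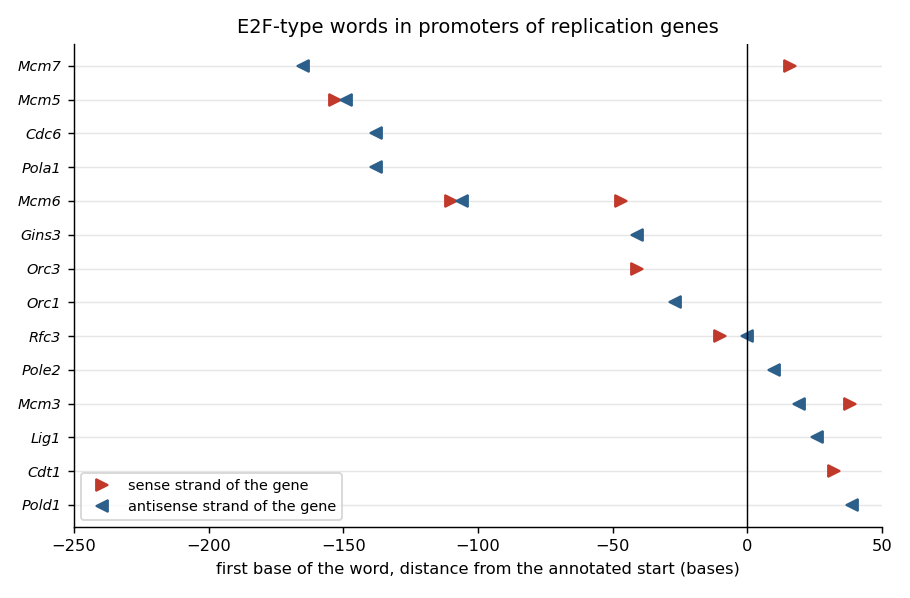
Position of each E2F-type word in the promoters of the 14 replication genes that hold one, in bases from the annotated start (0). Triangles point right for words on the gene's sense strand and left for the antisense strand. Words spread from 165 bases before the start in Mcm7 into the transcribed bases of Cdt1 and Pold1, and the paired triangles of Mcm5 and Mcm6 are overlapping words.

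ORC transcripts were uneven among subunits and lower than those of the ring they load. Orc1, the largest ORC subunit, was the least abundant of the 48 genes at 4.77 FPKM in mutant and 4.39 FPKM in control hearts (log2 0.12, SE 0.332, 95% interval -0.53 to 0.77, p = 0.715 in the authors' deposited table). That is the highest ratio of the 48. Orc6 was the most abundant ORC gene, at 39.4 FPKM in mutant and 39.3 FPKM in control hearts, 8.25 times the Orc1 level in mutant and 8.94 times in control hearts. Orc2, which forms the core of the complex, read 16.3 FPKM in mutant and 15.6 FPKM in control hearts, and Orc4 read 12.1 FPKM in mutant and 11.3 FPKM in control hearts. Orc3 and Orc5, the remaining core subunits, read 9.09 and 15.7 FPKM in mutant hearts and 9.25 and 16.9 FPKM in control hearts. As deposited 4 of 6 lay above 0, and 3 of 6 with equal sums. Orc1 overlaps Prpf38a and Orc4 overlaps Mbd5 in the RefSeq annotation, so their reads may be shared.

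The loading factors and their inhibitor all lay below 0. Cdt1 read 31.7 FPKM in mutant and 35.3 FPKM in control hearts (log2 -0.15, SE 0.280, 95% interval -0.70 to 0.40). Cdc6, the ATPase that recruits Cdt1 and the ring to ORC, read 9.46 FPKM in mutant and 10.4 FPKM in control hearts (log2 -0.13, SE 0.287). Geminin, Gmnn, read 59.2 FPKM in mutant and 62.8 FPKM in control hearts (log2 -0.08, SE 0.288). Per length there was more geminin than Cdt1 message in both genotypes, with a Cdt1 to Gmnn ratio of 0.535 in mutant and 0.562 in control hearts. The scalings shift every fold change by 0.02 (centring) or -0.03 (equal sums), too little to change the sign of these 3 genes. Their intervals all include 0.

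Among the genes that activate the ring, Cdc45 read 20.9 FPKM in mutant and 22.6 FPKM in control hearts and Mcm10, which acts as the helicase starts to move, read 11.6 FPKM in mutant and 12.3 FPKM in control hearts. The 4 GINS subunits form a 1-to-1 complex in the cell, yet their transcripts differed 6.08-fold in mutant and 6.25-fold in control hearts. Gins2 was the highest at 43.6 FPKM in mutant and 46.0 FPKM in control hearts. Gins3 was the lowest at 7.17 FPKM in mutant and 7.37 FPKM in control hearts. Gins1 and Gins4 read 23.3 and 31.8 FPKM in mutant hearts and 23.2 and 29.9 FPKM in control hearts. The 6 genes of this group had a median fold change of -0.06, with 4 below 0.

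Pcna, the sliding clamp, was the most abundant of the 48 genes at 188 FPKM in mutant and 184 FPKM in control hearts (log2 0.03, SE 0.299, 95% interval -0.56 to 0.61). It stood above 97.1% of all tested entries. Among its loader subunits Rfc2 was the highest, at 71.8 FPKM in mutant and 70.8 FPKM in control hearts, and Rfc1, the large subunit, the lowest, at 17.04 FPKM in mutant and 18.1 FPKM in control hearts. Rfc3 and Rfc4 read 37.4 and 38.2 FPKM in mutant hearts and 37.2 and 37.8 FPKM in control hearts, and Rfc5 read 24.6 FPKM in mutant and 26.7 FPKM in control hearts. Pcna, Rfc2, Rfc3 and Rfc4 lay above 0 as deposited and below 0 with equal sums. In the RefSeq annotation Rfc4 overlaps Eif4a2, a translation factor gene.

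The primase and polymerase genes all lay below 0 as deposited, 8 of 8, and 7 of 8 with centring, where Prim2 changed sign. Pola2, the regulatory subunit of polymerase alpha, read 22.6 FPKM in mutant and 24.6 FPKM in control hearts (log2 -0.12, SE 0.289, 95% interval -0.69 to 0.44). Pold2, an accessory subunit of the lagging strand polymerase delta, read 47.3 FPKM in mutant and 51.2 FPKM in control hearts, and its catalytic partner Pold1 read 22.7 FPKM in mutant and 24.0 FPKM in control hearts. The catalytic subunits of polymerases alpha and epsilon were the least abundant of the group. Pola1 read 7.001 FPKM in mutant and 7.32 FPKM in control hearts, and Pole read 6.96 FPKM in mutant and 7.22 FPKM in control hearts. Pole2, the second subunit of epsilon, read 13.01 FPKM in mutant and 14.0 FPKM in control hearts. The primase genes Prim1 and Prim2 read 30.5 and 14.7 FPKM in mutant hearts and 31.2 and 14.7 FPKM in control hearts.

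Replication protein A, the trimer that coats single-stranded DNA, was the most even of the complexes with 3 or more members. Rpa1, Rpa2 and Rpa3 read 49.3, 44.8 and 56.1 FPKM in mutant hearts and 51.6, 47.6 and 58.9 FPKM in control hearts, a span of 1.25-fold in mutant and 1.24-fold in control hearts. Their fold changes lay between -0.09 and -0.06, farther from 0 than either scaling shifts them. The enzymes that finish Okazaki fragments lay on opposite sides of 0. The ligase Lig1 read 46.4 FPKM in mutant and 50.5 FPKM in control hearts, while the flap nuclease Fen1 read 49.4 FPKM in mutant and 47.4 FPKM in control hearts. Neither differed beyond its error (SE 0.307 for Lig1 and 0.348 for Fen1).

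Nucleotide supply genes were led by ribonucleotide reductase, which makes deoxynucleotides. Its S-phase subunit Rrm2 read 88.7 FPKM in mutant and 93.4 FPKM in control hearts and its large subunit Rrm1 read 67.5 FPKM in mutant and 70.8 FPKM in control hearts. The Rrm2 to Rrm1 ratio was 1.31 in mutant and 1.32 in control hearts. Tyms, which makes thymidylate, was lowest at 15.8 FPKM in mutant and 14.9 FPKM in control hearts and was the 1 gene of the group above 0 (log2 0.09, SE 0.292). The thymidine kinase Tk1 read 38.4 FPKM in mutant and 41.1 FPKM in control hearts, and Dut, which removes dUTP, read 42.9 FPKM in mutant and 44.8 FPKM in control hearts. The chromatin assembly subunits Chaf1a and Chaf1b read 24.0 and 25.4 FPKM in mutant hearts and 24.2 and 24.4 FPKM in control hearts. Slbp, which binds the stem-loop of histone mRNA, read 49.9 FPKM in mutant and 47.1 FPKM in control hearts (log2 0.08, SE 0.282).

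**Figure D3:**
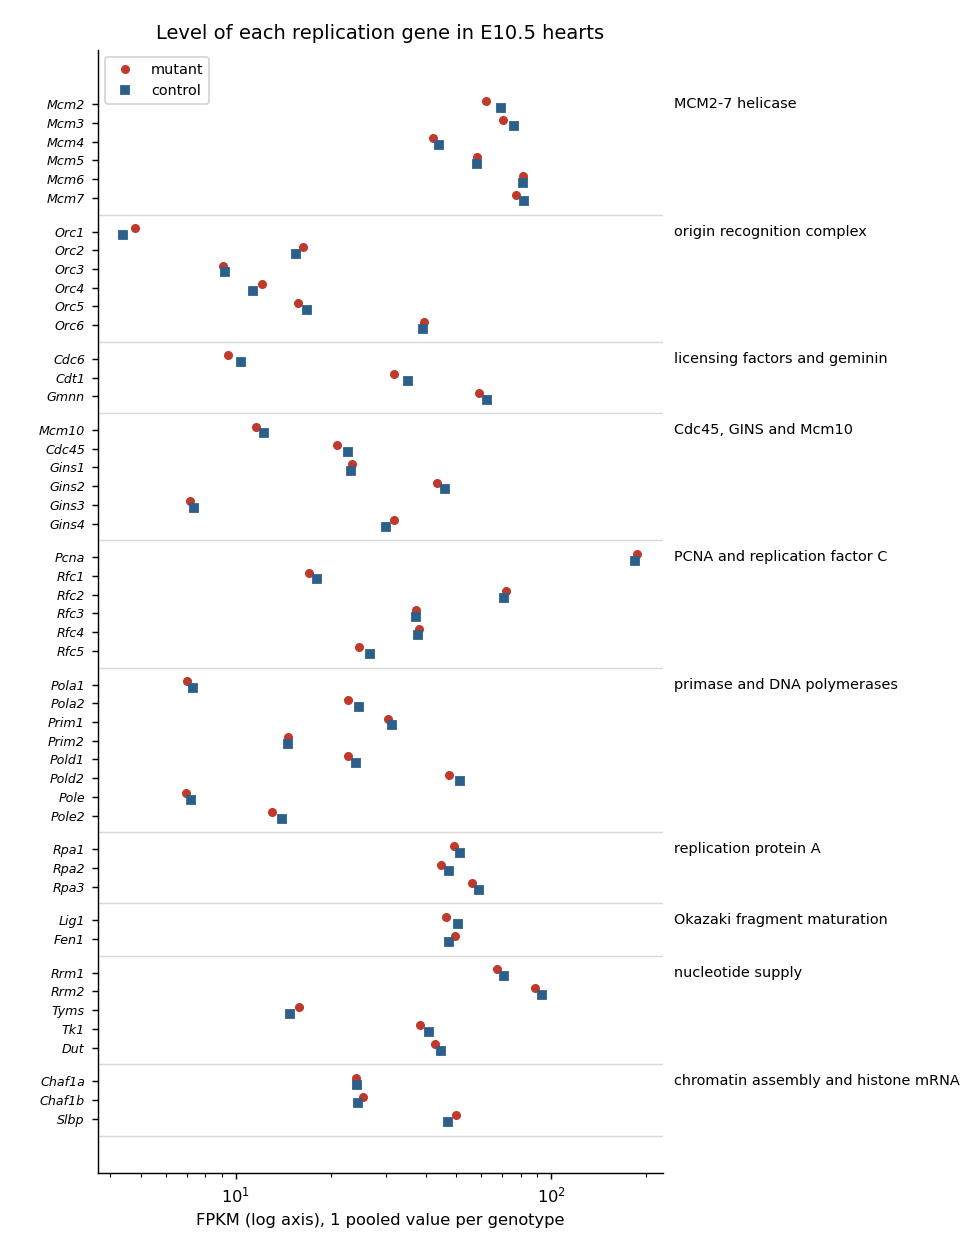
FPKM of each of the 48 replication genes in mutant (circles, upper of each pair) and control hearts (squares, lower), on a log axis, 1 pooled value per genotype. Pcna stands highest at 188 and 184 FPKM and Orc1 lowest at 4.77 and 4.39 FPKM in mutant and control hearts, and within each gene the symbols nearly coincide, while genes of the same complex are often several-fold apart.

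Levels differed far more between members than between genotypes. Members spanned 39.3-fold in mutant and 42.0-fold in control hearts, and their order was nearly the same in both (Spearman's rho 0.995 across the 48 genes, which share libraries and are not replicates). Such a rho follows from a wide span and small fold changes. The mitosis genes also spanned 23.0-fold in mutant and 21.3-fold in control hearts. In mutant hearts 6 members were under 10 FPKM and 11 over 50 FPKM, against 5 and 14 in control hearts. Across members the fold change was little related to the level (rho -0.11). The members lie on 15 chromosomes. Those on the chromosomes of the engineered loci are Orc1, Orc3 and Rpa2, of which Rpa2 is the nearest to Casz1 at 16.0 Mb on chromosome 4, and Chaf1a, at 29.2 Mb from Nkx2-5 on chromosome 17 (log2 -0.01).

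Further genes of the pathway numbered 77 in 5 lists, with 76 tested, 0 called higher, 0 called lower and 0 with an unadjusted p under 0.05 by the authors' Cuffdiff test. As deposited, 43 of the 76 (56.6%) lay below 0, against 54.7% of all tested entries. The share was 58.3% for fork and polymerase genes, 40.0% for nucleotide metabolism, 44.4% for licensing control and 54.5% for chromatin replication. Of 12 tested genes of helicase activation and loading 11 lay below 0, with a median of -0.09. In this list Dbf4, the activator of the Cdc7 kinase that fires origins, read 26.0 FPKM in mutant and 26.8 FPKM in control hearts, and Topbp1, a scaffold for loading Cdc45, read 21.3 FPKM in mutant and 23.3 FPKM in control hearts. The 24 fork and polymerase genes had a median of -0.03, with the histone chaperone Ssrp1 at 123 FPKM in mutant and 123 FPKM in control hearts and Rnaseh2c, a subunit of the enzyme that removes ribonucleotides from DNA, at 102 FPKM in mutant and 95.7 FPKM in control hearts. The 20 genes of nucleotide metabolism had a median of 0.03, with the nucleoside diphosphate kinases Nme2 at 510 FPKM in mutant and 480 FPKM in control hearts and Nme1 at 167 FPKM in mutant and 154 FPKM in control hearts. The median was 0.00 for 9 genes of licensing control, where the ubiquitin ligase adaptor Ddb1 read 193 FPKM in mutant and 193 FPKM in control hearts and the cyclin Ccna2 read 71.4 FPKM in mutant and 73.5 FPKM in control hearts. It was -0.01 for 11 genes of chromatin replication, where the histone chaperone Nasp read 113 FPKM in mutant and 110 FPKM in control hearts and Rbbp4, a histone-binding protein, read 76.6 FPKM in mutant and 74.6 FPKM in control hearts.

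Beside the replication genes, other cell cycle lists had similar medians. Of 31 mitosis genes 24 (77.4%) lay below 0 with a median of -0.06, and of 22 tested G1/S cyclin, kinase and E2F genes 17 (77.3%) did with a median of -0.09. By the authors' Cuffdiff test 0 genes of either list were called, and the number below an unadjusted p of 0.05 was 0. The median for the 48 replication genes was -0.06 and over all 15301 entries -0.02. The lists were not tested against one another.

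**Figure D4:**
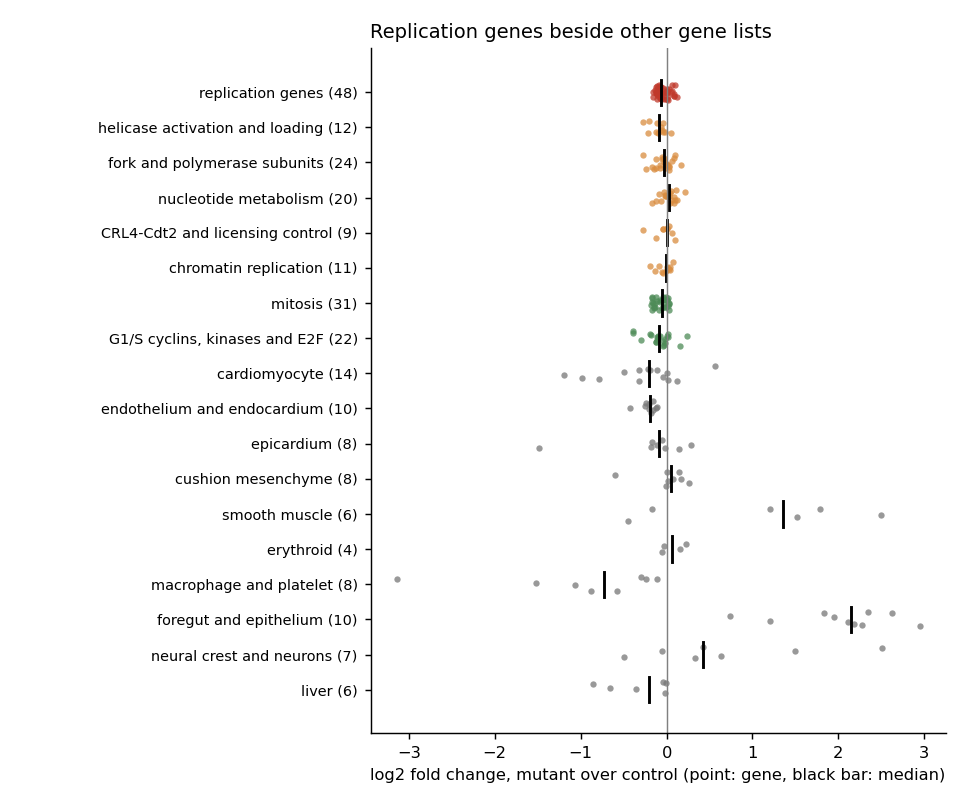
Log2 fold change, mutant over control, of each gene (point) in the replication genes (red), other replication pathway lists (orange), other cell cycle lists (green) and cell type marker lists (grey), with the number of genes plotted in brackets and the median as a black bar. The replication genes lie between -0.16 and 0.12 with a median of -0.06, and the mitosis genes between -0.18 and 0.03. Smooth muscle and foregut markers reach medians of 1.36 and 2.15.

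Some cell type markers were called in the same comparison. All 10 foregut and epithelial markers lay above 0, 6 of them called higher, with a summed level of 176 FPKM in mutant and 82.8 FPKM in control hearts. Most of that sum came from Krt8 and Krt18. Krt8, called higher, read 91.5 FPKM in mutant and 39.7 FPKM in control hearts. Krt18, not called, read 65.2 FPKM in mutant and 39.0 FPKM in control hearts. Each other marker of this list was low, at most 7.27 FPKM in mutant hearts and less in control hearts. Of 6 tested smooth muscle markers 4 lay above 0 and 2 below, and 2 were called higher, Actg2 and Lmod1. The summed level of the 6 was 909 FPKM in mutant and 498 FPKM in control hearts. Most of it was Tagln, at 767 FPKM in mutant and 333 FPKM in control hearts, which was not called. Acta2, also on the list, had no usable value. All 8 tested macrophage and platelet markers lay below 0, with a summed level of 46.2 FPKM in mutant and 105 FPKM in control hearts. The largest part was the platelet gene Pf4, at 28.8 FPKM in mutant and 60.5 FPKM in control hearts, which was not called. Lyz2, the 1 marker called lower, read 1.91 FPKM in mutant and 16.9 FPKM in control hearts. The other tested macrophage markers were low, at most 0.969 FPKM in mutant and 1.19 FPKM in control hearts, and were not called. Of the 14 cardiomyocyte markers 11 lay below 0, with a median of -0.21, and 3 had an unadjusted p under 0.05. These were Nkx2-5, the atrial peptide gene Nppa at 888 FPKM in mutant and 1755 FPKM in control hearts, and Pln, a regulator of the calcium pump and the 1 marker of the list called lower, at 56.2 FPKM in mutant and 129 FPKM in control hearts. The summed level of all 14 was 24193 FPKM in mutant and 24825 FPKM in control hearts, and within that sum Myl7 was higher by value and Myl2 lower by value in mutant hearts. All 10 endothelial and endocardial markers lay below 0 with a median of -0.19 and 0 called, and 4 of 8 erythroid markers, all globins, had no usable value. Epicardial, cushion, neural and liver markers had 0 called, with medians of -0.09, 0.05, 0.43 and -0.20. The part of these markers in the values of the replication genes was not tested. In pooled tissue, fewer cells of a type and less RNA per cell cannot be told apart.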

How the data were processed

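RNA from 6 hearts was compared as mutant against control. Cuffdiff with Cufflinks 2.1.1, the aligner TopHat2 2.0.8 and build mm10 are listed in the submitters' processing notes. How libraries were scaled and whether counting used strand is not given in the sources. The authors deposited FPKM values, 1 per gene and genotype, with a score for each entry (log2 fold change and test statistic). The authors also deposited p-values and q-values. Depth is unknown because FPKM holds no counts, and no value per heart was used. RefSeq accessions were matched to symbols, naming 99.3% of entries. Of 23290 entries 15387 were tested, and 86 of these stood at 0 in 1 genotype. Each deposited p differed by at most 2.8e-06 from a normal tail computed from the statistic, so the SE was taken as the fold change divided by the statistic. The p-values rest on 3 hearts per genotype, described as biological replicates. Members and lists were chosen with earlier results of these data known. All members could be named. Of other lists, called genes, genes with p under 0.05 and the 2 with the highest FPKM could be, and only some are. The histone and microRNA genes of the closing section were chosen after their values were seen. Of 48 members 14 overlap another protein-coding gene, and their reads may be shared. The adjustment, calling and interval formulas were run on simulated fold changes that shared 1 SE. That simulation did not cover gene naming, row choice, scaling, the promoter search or the authors' own test. Alternatives covered thresholds, filters, pseudocounts, scaling and row choice. Python 3.11.15, numpy 2.4.6, pandas 2.3.3, scipy 1.17.1 and matplotlib 3.10.9 were used.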

Additional observations from a re-analysis of the deposited data

How the results depend on the processing

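The count of called replication genes stayed at 0 higher and 0 lower, and that of other pathway genes at 0, under each alternative. These were q under 0.1, an unadjusted p under 0.05, adjustment over entries with at least 1 FPKM, centring, and the entry of highest FPKM. The lowest p was 0.583 among the members and 0.334 among the other pathway genes, so no such threshold could call one. Centring leaves p and q as they are, and each member had 1 entry. The unchanged counts therefore carry no further information. The median fold change stayed between -0.09 and -0.05 over 8 alternatives, among them pseudocounts of 0.1 and 1 FPKM and a minimum of 10 FPKM. Among all 48 members the number below 0 ranged from 30 (62.5%), with centring, to 40 (83.3%), with equal sums. In smaller sets it was 29 of 43 with a minimum of 10 FPKM. It was 23 of 34 without the 14 members that overlap another protein-coding gene, a setting chosen after seeing the data. No paired analysis was possible because the file gives 1 pooled value per genotype, and for the same reason no replicate could be left out. Depth is unknown. With a median implied SE of 0.294 small shifts could not be seen, and the smallest absolute log2 fold change called in the table was 1.20.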

Other observations

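The canonical histone genes, whose mRNA accumulates in S phase, are no members of the list above and were looked at after the values of Slbp and of the other members had been seen. Of 58 tested histone genes with a finite fold 44 lay above 0, with a median log2 fold change of 0.21 (median SE 0.594) and a lowest p of 0.249 in the authors' deposited table, so 0 were called. Over all 15301 tested entries with a finite fold 54.7% lay below 0. The clusters differed in direction, a difference that was not tested. On chromosome 13, 42 of 49 genes lay above 0 with a median of 0.22, and their summed level was 171 FPKM in mutant and 153 FPKM in control hearts. On chromosome 3, 7 of 9 lay below 0 with a median of -0.25, and the summed level of the 9 was 8.85 FPKM in mutant and 9.80 FPKM in control hearts. Levels in this cluster were low, at most 2.49 FPKM in mutant and 2.97 FPKM in control hearts. H2bc4 read 17.3 FPKM in mutant and 14.7 FPKM in control hearts and H4c9 read 17.4 FPKM in mutant and 19.1 FPKM in control hearts. Histone genes are near-identical copies between which reads can be split, so single values are uncertain. How well these libraries capture histone mRNA is not known here, so the values are no measure of cells in S phase.

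Mcm7 holds the microRNA genes Mir25, Mir93 and Mir106b in its introns, and the authors' deposited table lists each as an entry of its own. Mir25 read 134 FPKM in mutant and 133 FPKM in control hearts. Mir93 read 3.07 FPKM in mutant hearts and is listed at 0 in control hearts, and Mir106b is listed at 0 in mutant hearts and read 9.93 FPKM in control hearts (p = 0.469 in the authors' deposited table). Libraries made from long RNA do not measure mature microRNAs, and reads of the Mcm7 transcript can fall in these entries.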
